A study of Homo sapiens with 12 samples.

Results

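The 10 genes described here are STAT5A, STAT5B, EPAS1, CITED2, PIM1, PIM2, CISH, SOCS2, SOCS3 and OSM. They are the 2 STAT5 genes, a set of textbook STAT5 targets, and the arm of EPAS1 (the gene of HIF2A) and CITED2 that has been reported to fall with glitazones in leukaemia stem cells. They were taken by name from 57865 genes, and all 10 were among the 15424 genes with enough counts to be tested. The 12 libraries come from 4 cell lines of acute myeloid leukaemia, which are KG-1a, MOLM-14, MV4-11 and OCI-AML3. Cells were treated for 12 h with DMSO, the solvent control, with 10 µM pioglitazone or with 10 µM darglitazone, with 1 library per line and treatment. Both drugs are thiazolidinediones that activate the nuclear receptor PPARG. An established line stands for 1 patient's leukaemia kept in culture, and the labels name neither genotypes nor repeat cultures. MOLM-14 and MV4-11 are known to carry an internal tandem duplication in the receptor kinase FLT3 (FLT3-ITD), which is general knowledge of these lines and not in the labels.

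STAT5A and STAT5B are transcription factors that wait in the cytoplasm until a kinase bound to a cytokine receptor, or an activated receptor such as FLT3-ITD, phosphorylates them. Phosphorylated STAT5 enters the nucleus and switches on survival kinases (PIM1, PIM2), the cytokine OSM, and the inhibitors CISH, SOCS2 and SOCS3, which feed back on the receptor. HIF2A is the oxygen-regulated subunit of a transcription factor of hypoxic cells, and CITED2 competes with HIF subunits for the coactivators EP300 and CREBBP. Both EPAS1 and CITED2 have been studied as genes that keep blood stem cells and leukaemia stem cells out of the cell cycle. STAT5 and HIF2A are controlled largely at the protein, by phosphorylation and by degradation, and neither was measured here.

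The libraries held 1.1 to 64.24 M estimated counts, and 2 of them stood apart. The OCI-AML3 library with pioglitazone was the shallowest, and an rRNA-derived entry took 6.174% of its counts. The same entry took 23.535% of the KG-1a library with pioglitazone, against at most 0.145% of any DMSO library. Levels are given in CPM, the usual count scaled to the library total, with totals adjusted by TMM, and a count of 3 was worth 0.0467 to 2.74 CPM. The summed myeloid markers were at 299 to 3360 CPM. All 12 of them could be tested, but 1 line with enough counts can satisfy that filter. SPI1, CD33 and CEBPA were at 34.2 CPM or more in every library. In KG-1a CD14 was at 0 CPM, and the line means of CSF1R (0.886 CPM), MPO (2.34), ELANE (3.93) and CD68 (4.64) were low. The summed stem and progenitor markers were at 614 to 736 CPM in KG-1a and at 3.36 to 73 CPM elsewhere. CD34 alone made 599 to 715 CPM of the KG-1a sum. CD38 had higher line means in OCI-AML3 (50 CPM) and MOLM-14 (25 CPM) than in KG-1a (14.4 CPM). KIT was highest in KG-1a at a line mean of only 8.05 CPM, and PROM1 and THY1 did not pass the filter. The summed lymphoid markers were at 73.5 to 97.9 CPM in KG-1a and at most 7.15 CPM elsewhere, MS4A1 was at 0 in every line, and HBB, HBA1 and ALAS2 of the erythroid list were at 0. In bulk RNA, fewer cells of a type and less RNA per cell cannot be told apart.

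None of the 10 genes was called for either drug, which does not show that none changed. The test weighs a drug difference against the spread that remains after line and treatment are fitted. The widest interval, that of EPAS1 with pioglitazone, ran from −1.57 to 1 on the log2 scale. With pioglitazone, 0 of 10 passed an adjusted p of 0.05 in edgeR's quasi-likelihood test, and so did 0% of all genes tested. With darglitazone the counts were again 0 of 10 and 0% of all genes. At an unadjusted p under 0.05, pioglitazone had 0 of the 10 genes and 919 of all genes (5.96%), and darglitazone had 1 of the 10 (STAT5A) and 525 of all genes (3.4%). The median log2 difference of the 10 genes from DMSO was 0.06 with pioglitazone, with 6 above 0 and 4 below, and −0.02 over all genes. With darglitazone it was 0.02, with 5 above and 5 below, and 0.01 over all genes. The drugs share the DMSO libraries, so the lists of values are not independent of each other. Nothing says that libraries came from separate cultures, so each p measures only the spread between these samples. None of the 10 genes was called for either drug by DESeq2, by limma-voom or under any other setting tried.

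The lines differed far more than the treatments. Of the 10 genes, 8 differed between MOLM-14 and OCI-AML3 in edgeR at an adjusted p of 0.05, where 33.6% of all genes did. All 8 were higher in MOLM-14 (17.5% of all genes were) and 0 lower (16%). Between MV4-11 and OCI-AML3 there were 8 (all genes 40.7%), with 6 higher (20.9%) and 2 lower (19.9%) in MV4-11. Between OCI-AML3 and KG-1a there were 8 (51.5%), with 2 higher (26.5%) and 6 lower (25%) in OCI-AML3. MV4-11 and KG-1a differed in 8 (47.4%), with 4 higher (24.7%) and 4 lower (22.7%) in MV4-11. MOLM-14 differed from KG-1a in 7 (52.7%), 3 higher (27.7%) and 4 lower (25%), and from MV4-11 in 7 (37.1%), 4 higher (18.6%) and 3 lower (18.4%). Such differences were common among all genes, and the counts are not read as particular to these 10. These tests weigh 1 line against another over the spread of 3 libraries a line, under 3 treatments, and say nothing of lines in general.

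**Figure D1:**
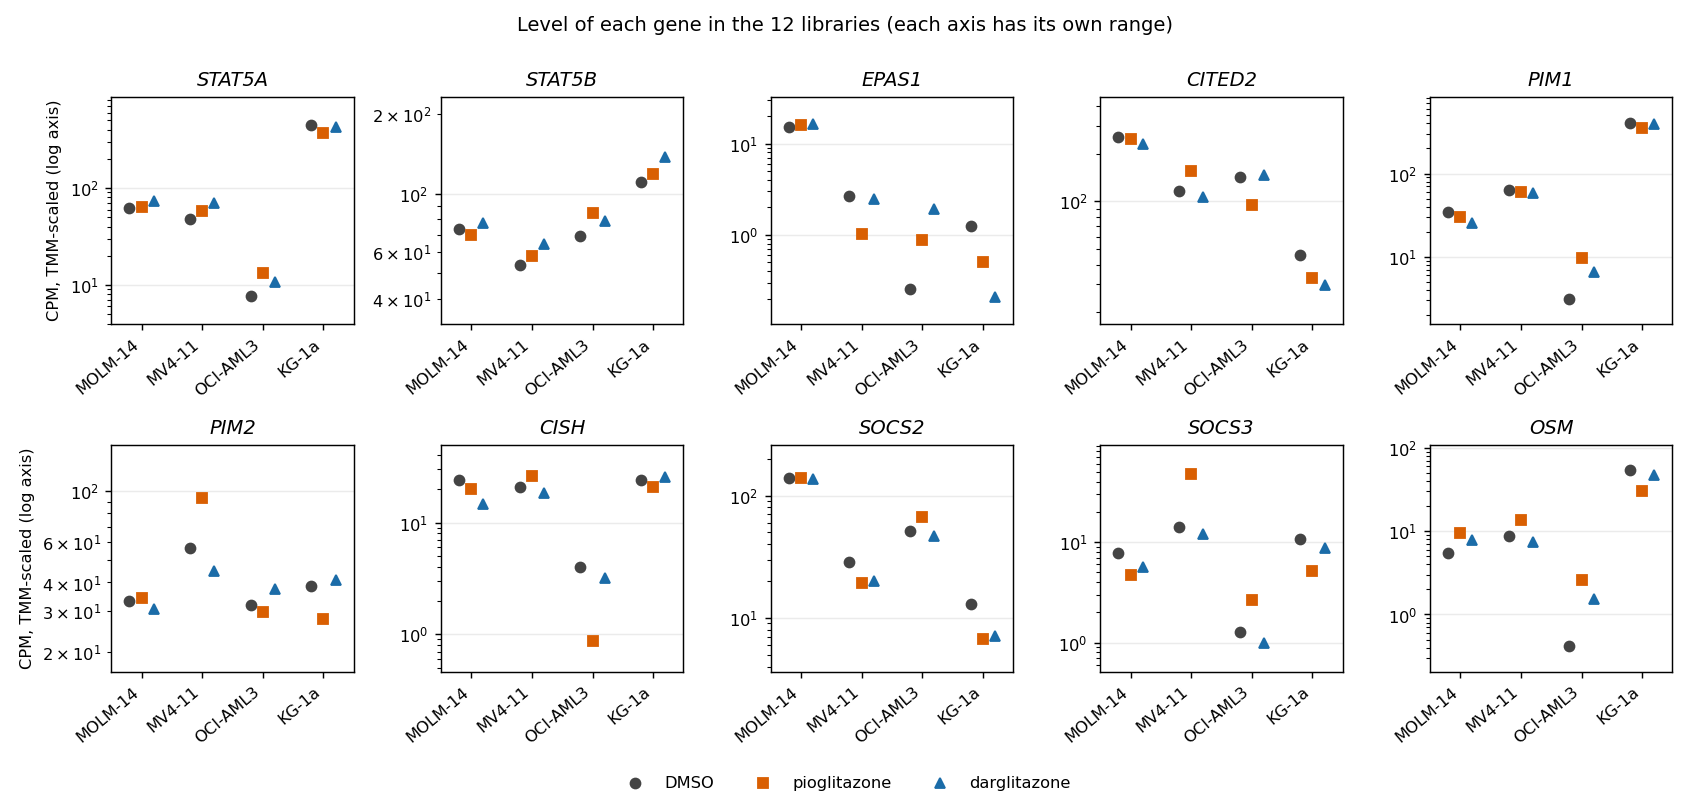
Level of each of the 10 genes in CPM on a log axis, 1 point per library, with the 4 lines along the horizontal axis and the treatment shown by the marker (circle DMSO, square pioglitazone, triangle darglitazone). The 3 points of a line mostly lie close together while the lines lie apart: STAT5A is at 374 to 442 CPM in KG-1a and at 7.70 to 13.2 CPM in OCI-AML3.

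STAT5A was the more variable of the 2 transcription factors. It was at 442, 374 and 429 CPM in KG-1a with DMSO, pioglitazone and darglitazone, in that order, which is used throughout. In MOLM-14 it was at 62.2, 63.7 and 73.8 CPM, in MV4-11 at 47.6, 57.9 and 70.2 CPM, and in OCI-AML3 at 7.70, 13.2 and 10.7 CPM. The KG-1a and OCI-AML3 libraries overlapped no other line, and MOLM-14 and MV4-11 overlapped each other. OCI-AML3 was lower than KG-1a by a log2 difference of −5.45 (SE 0.19, adjusted p 1.08e-10 in edgeR), which ranked 5 by p among all genes. MOLM-14 and MV4-11 differed by 0.19 (SE 0.15, adjusted p 0.348). The line means were 415 ± 35.8 CPM in KG-1a, 66.5 ± 6.29 in MOLM-14, 58.6 ± 11.3 in MV4-11 and 10.5 ± 2.74 in OCI-AML3 (SD, n = 3 libraries).

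With darglitazone STAT5A had the smallest p of the 10 genes, at a log2 difference from DMSO of 0.30 (SE 0.13, 95% interval 0.02 to 0.58, p 0.0385, adjusted p 1 in edgeR). It was higher in MOLM-14 (0.25), OCI-AML3 (0.47) and MV4-11 (0.56) and at −0.04 in KG-1a, so the correction over all genes was not passed although 3 of 4 lines were higher. With pioglitazone the difference was 0.11 (SE 0.14, interval −0.19 to 0.41). The single-line values ran from −0.24 in KG-1a to 0.77 in OCI-AML3, where the pioglitazone library held 15 counts of the gene (exact Poisson interval 7.39 to 21.8 CPM, counting error only).

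STAT5B was flatter, and its order was not that of STAT5A. It was at 111, 119 and 138 CPM in KG-1a, at 69.3, 84.2 and 78.9 CPM in OCI-AML3, at 73.3, 69.7 and 77.7 CPM in MOLM-14, and at 53.8, 58.3 and 64.4 CPM in MV4-11. KG-1a lay above all other libraries, and OCI-AML3 and MOLM-14 overlapped. The KG-1a level was higher than that of OCI-AML3, MOLM-14 and MV4-11 by log2 differences of 0.67, 0.73 and 1.06. OCI-AML3 and MOLM-14 differed by 0.06 (SE 0.12, adjusted p 0.782 in edgeR). MOLM-14 was higher than MV4-11 by 0.33 (adjusted p 0.0484), a call that was lost under 15 of 23 alternatives (adjusted p up to 0.278), among them without any 1 library of MOLM-14, MV4-11 or KG-1a. The call between MV4-11 and OCI-AML3 (−0.38, adjusted p 0.024) was lost under 8 of 23 (adjusted p up to 0.224), among them without any 1 MV4-11 library or the KG-1a DMSO library.

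Darglitazone libraries had more STAT5B than DMSO in 4 of 4 lines, by 0.08 to 0.31 on the log2 scale, and the fit gave 0.21 (SE 0.11, interval −0.01 to 0.44, p 0.0646, adjusted p 1 in edgeR). The share of all genes above DMSO in 4 of 4 lines was not computed, so this count has no background beside it. For pioglitazone it gave 0.09 (SE 0.11, interval −0.14 to 0.32), with 3 of 4 lines above DMSO. The intervals leave out a fall of STAT5B by more than 0.14 with pioglitazone, and of STAT5A by more than 0.19, in the fitted difference. That value is not the plain mean of the 4 lines, which for STAT5A with pioglitazone was 0.21. The 2 genes lie beside each other on chromosome 17 (GRCh38, GENCODE 29), STAT5A at 42287547 to 42311943 on the plus strand and STAT5B at 42199168 to 42276707 on the minus strand, with their starts 10840 bp apart. Of the 50-base windows of the main STAT5A transcript, 14.2% also occur in STAT5B, and 10.0% of those of STAT5B occur in STAT5A, so reads from these stretches could be assigned to either gene.

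PIM1, a serine/threonine kinase that keeps cells alive and growing, followed the order of STAT5A at its ends. It was at 406, 349 and 392 CPM in KG-1a, at 63.7, 59.5 and 57.6 CPM in MV4-11, at 34.7, 30 and 25.7 CPM in MOLM-14, and at 3.14, 9.65 and 6.60 CPM in OCI-AML3. No 2 lines overlapped. OCI-AML3 was lower than KG-1a by −6.24 on the log2 scale (SE 0.32, adjusted p 1.94e-08 in edgeR), the largest difference between 2 lines among the 10 genes. MOLM-14 was lower than MV4-11 by −0.99 (SE 0.24, adjusted p 0.00676), so the middle pair was in the opposite order to STAT5A.

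Under both drugs PIM1 was a little lower in MOLM-14, MV4-11 and KG-1a (single-line log2 differences of −0.05 to −0.43) and higher in OCI-AML3 (1.59 with pioglitazone, 1.05 with darglitazone). The fitted difference over the lines was 0.04 for pioglitazone (SE 0.22, interval −0.45 to 0.53) and 0.06 for darglitazone (SE 0.21, interval −0.40 to 0.52). The test of line by drug, for a response that differs between lines, pools both drugs against DMSO. It gave PIM1 a p of 0.00626 and an adjusted p of 1 in edgeR. In the OCI-AML3 pioglitazone library, PIM1 rested on 11 counts (exact Poisson interval 4.82 to 17.3 CPM).

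PIM2, a second kinase of the family on chromosome X, was nearly level across the lines. MOLM-14 was at 33.1, 34.3 and 30.7 CPM, OCI-AML3 at 32.0, 29.8 and 37.5 CPM, KG-1a at 38.6, 27.8 and 41.0 CPM, and MV4-11 at 56.7, 93.6 and 44.9 CPM. The first 3 lines overlapped and differed from each other by at most 0.13 on the log2 scale. MV4-11 was higher than each of them, by 0.97 against MOLM-14, 0.91 against OCI-AML3 and 0.84 against KG-1a, at adjusted p of 0.00567, 0.0102 and 0.012 in edgeR. Without the MV4-11 pioglitazone library these calls were lost, at 0.56 (adjusted p 0.0581), 0.55 (0.0543) and 0.47 (0.0874). The call against KG-1a was also lost when its own pioglitazone library was left out (0.59, adjusted p 0.0829), and that against OCI-AML3 without its DMSO library (0.85, adjusted p 0.0594). Pioglitazone against DMSO gave 0.12 (SE 0.21, interval −0.34 to 0.58), with the MV4-11 value at 0.72 and the KG-1a value at −0.47. Darglitazone gave −0.02 (SE 0.21, interval −0.46 to 0.43).

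CISH is the classic feedback target of STAT5, an SH2 protein that occupies the phosphorylated receptor. Its promoter is shown because it was the only one among the 8 genes searched with a STAT motif in the window. The motif was TTCNNNGAA, searched on both strands in the 250 bases before each RefSeq start (GRCh38.p14). The 8 genes have 13 starts in that table, and SOCS2 and OSM were not searched. The motif occurs in 6.57% of 35116 such windows, and CISH has 4 matches, a number that only 5 of all windows reach or pass. The lines below give the minus strand, 5′ to 3′, of chr3:50611991-50612020 (246 to 217 bases before the start) and chr3:50611876-50611905 (131 to 102 bases before it), with the matches in capitals. A match is a description of the letters and not a measured site.
CISH upstream pair: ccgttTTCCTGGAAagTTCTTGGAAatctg
CISH downstream pair: ggTTCTAGGAAgacgctgcTTCCGGGAAgg

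The CISH level was alike in 3 lines and low in OCI-AML3. It was at 24.3, 20.1 and 14.6 CPM in MOLM-14, at 20.7, 26.3 and 18.5 CPM in MV4-11, at 24.1, 20.9 and 25.8 CPM in KG-1a, and at 3.98, 0.877 and 3.18 CPM in OCI-AML3. The first 3 lines overlapped and differed by at most 0.27 on the log2 scale, with adjusted p of 0.368 to 0.731. OCI-AML3 lay below every other library, by 2.54 against MOLM-14, 2.69 against MV4-11 and 2.8 against KG-1a (SE 0.28 each, adjusted p at most 7.03e-06 in edgeR). So CISH did not share the high KG-1a level of STAT5A and PIM1, and KG-1a held no more of it than MOLM-14 beyond the spread.

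With darglitazone CISH was lower in 3 of 4 lines, at −0.73 in MOLM-14 and 0.10 in KG-1a, and the fit gave −0.29 (SE 0.21, interval −0.74 to 0.16, adjusted p 1 in edgeR). With pioglitazone 3 of 4 lines were lower and the fit gave −0.14 (SE 0.22, interval −0.62 to 0.34). Of all genes tested, 37% were lower in at least 3 of 4 lines with pioglitazone and 31.4% with darglitazone. The OCI-AML3 pioglitazone value was 1 count, with an exact Poisson interval of 0.0222 to 4.89 CPM that holds the DMSO value. CISH lies at 50606490 to 50611831 on chromosome 3 and overlaps MAPKAPK3 on the other strand, and the sources used here do not say whether the counting used strand. A transcript with a retained intron took 36.8% of its counts and the main coding transcript 59.6%.

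SOCS2 restrains growth hormone and cytokine receptors and is induced by STAT5. It was at 140, 140 and 137 CPM in MOLM-14, at 51.7, 66.7 and 46.5 CPM in OCI-AML3, at 28.7, 19.3 and 20.2 CPM in MV4-11, and at 13, 6.75 and 7.12 CPM in KG-1a. No 2 lines overlapped, all 6 pairs passed the test, and KG-1a, at the top for STAT5A, was at the bottom for SOCS2. MOLM-14 was higher than KG-1a by 3.98 (SE 0.22, adjusted p 3.03e-09 in edgeR) and than MV4-11 by 2.63 (SE 0.20, adjusted p 1.76e-07). MV4-11 was higher than KG-1a by 1.35 (SE 0.21, adjusted p 0.000117).

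SOCS2 had the most negative fitted difference with pioglitazone after EPAS1, at −0.26 (SE 0.18, interval −0.64 to 0.11, adjusted p 0.918 in edgeR). With darglitazone it was lower in 4 of 4 lines, where 7.12% of all genes were, and the fit gave −0.36 (SE 0.17, interval −0.72 to 0.01, p 0.0558, adjusted p 1). The single-line values with darglitazone were −0.86 in KG-1a, −0.51 in MV4-11, −0.15 in OCI-AML3 and −0.04 in MOLM-14. With pioglitazone they were −0.94, −0.57, 0.37 and 0 in the same lines. The 2 lines with the lowest SOCS2 levels thus had the larger differences under both drugs. The gene's counts were split over 12 coding transcripts, and the gene overlaps SOCS2-AS1.

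SOCS3 restrains receptors that signal through the shared chain IL6ST. It was at 14.1, 48.0 and 12.0 CPM in MV4-11, at 10.7, 5.14 and 8.79 CPM in KG-1a, at 7.82, 4.71 and 5.67 CPM in MOLM-14, and at 1.29, 2.63 and 0.998 CPM in OCI-AML3. MV4-11 and OCI-AML3 overlapped no other line, and KG-1a and MOLM-14 overlapped and differed by 0.44 (SE 0.50, adjusted p 0.488 in edgeR). The pioglitazone library of MV4-11 held the highest value of all 12, at a log2 difference of 1.76 from its DMSO library. In KG-1a and MOLM-14 the pioglitazone differences were −1.05 and −0.72. The fit over the lines gave 0.23 for pioglitazone (SE 0.48, interval −0.81 to 1.28).

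Darglitazone libraries had less SOCS3 than DMSO in 4 of 4 lines, where 7.12% of all genes were lower in 4 of 4. The differences were −0.46 to −0.23, with a fitted difference of −0.39 (SE 0.44, interval −1.34 to 0.57, adjusted p 1 in edgeR). MV4-11 was higher than MOLM-14 by 1.88 (adjusted p 0.0116), than KG-1a by 1.44 (adjusted p 0.0372) and than OCI-AML3 by 4.10 (adjusted p 0.00023). Without the MV4-11 pioglitazone library these were 0.97 (adjusted p 0.0832), 0.58 (0.277) and 3.34 (5.84e-05). The first was also lost without the MOLM-14 pioglitazone library (1.42, 0.0762) and without all of OCI-AML3 (1.91, 0.0563). The call against KG-1a was lost under 9 of 23 alternatives, with 0.85 (adjusted p 0.194) if the KG-1a pioglitazone library was left out, and with 1.44 to 1.47 (0.0501 to 0.0649) without the MOLM-14 darglitazone library or any 1 OCI-AML3 library. MOLM-14 was higher than OCI-AML3 by 2.22 (adjusted p 0.0116), a call lost without the MOLM-14 DMSO library (1.88, 0.0633), the OCI-AML3 DMSO library (2.11, 0.104) or its darglitazone library (2.19, 0.0759), and at 1.16 (0.262) with counts thinned to the shallowest library.

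OSM encodes oncostatin M, a cytokine of myeloid cells that STAT5 induces. It was at 53.7, 30.6 and 47.3 CPM in KG-1a, at 8.81, 13.6 and 7.51 CPM in MV4-11, at 5.5, 9.43 and 7.80 CPM in MOLM-14, and at 0.418, 2.63 and 1.52 CPM in OCI-AML3. KG-1a and OCI-AML3 again stood alone at the top and the bottom, while MV4-11 and MOLM-14 overlapped (log2 difference 0.38, SE 0.39, adjusted p 0.485 in edgeR). OCI-AML3 was lower than KG-1a by −5.58 (SE 0.53, adjusted p 3.74e-06). Without the OCI-AML3 DMSO library the difference was −4.70, and without its darglitazone library −6.38, with the call kept in both.

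OSM had the largest positive fitted difference with pioglitazone, at 0.41 (SE 0.37, interval −0.41 to 1.23, adjusted p 0.940 in edgeR). It was higher in 3 of 4 lines, at 0.77 in MOLM-14, 2.38 in OCI-AML3 and 0.62 in MV4-11, and lower in KG-1a at −0.81. Darglitazone gave 0.32 (SE 0.35, interval −0.45 to 1.08), with MOLM-14 at 0.50, OCI-AML3 at 1.63, MV4-11 at −0.23 and KG-1a at −0.18. The OCI-AML3 pioglitazone value was 3 counts (exact Poisson interval 0.542 to 7.69 CPM). The genes of its receptor were low: OSMR was at most at 1.93 CPM, LIFR at most at 0.877 CPM, and IL6ST at 2.51 to 12.5 CPM.

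**Figure D2:**
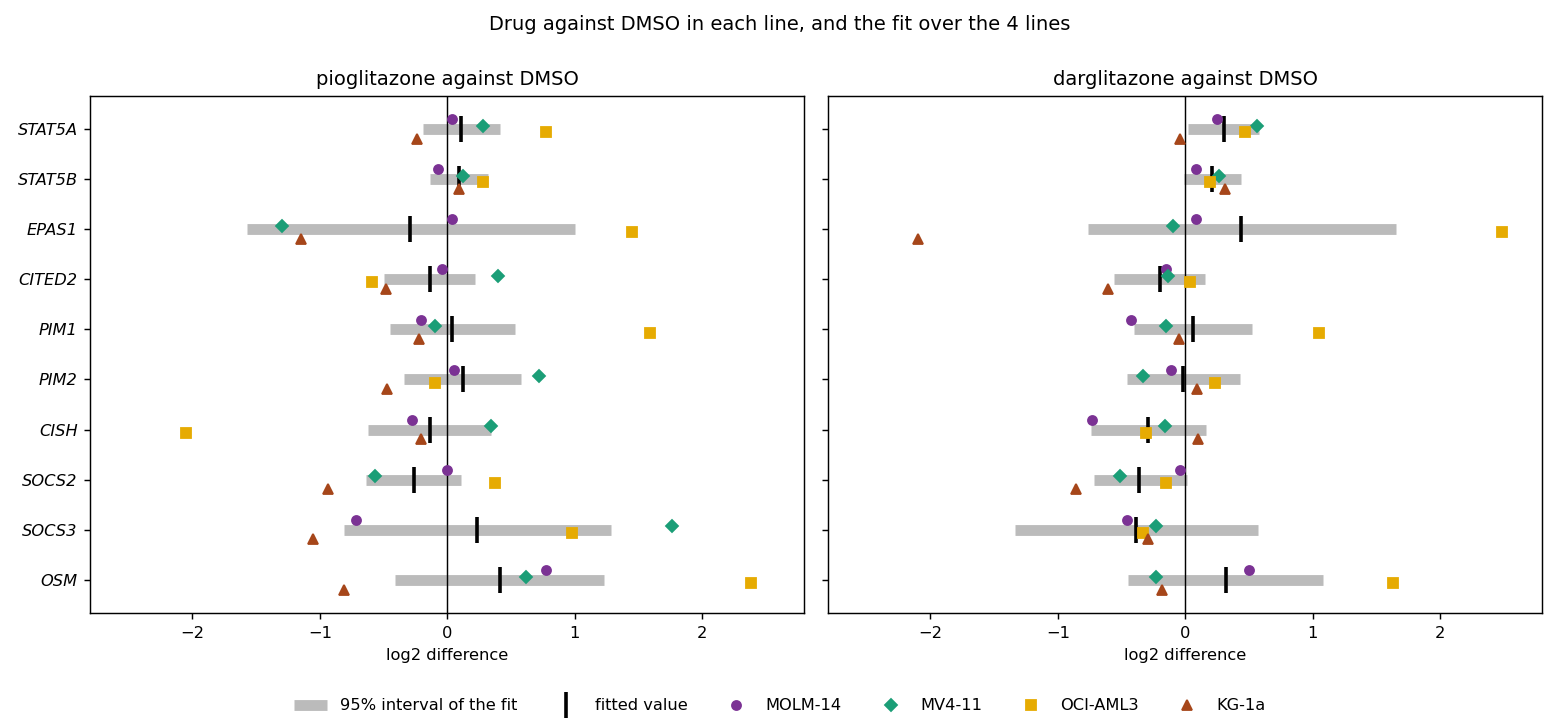
Log2 difference of each drug from DMSO for the 10 genes, with 1 marker per line, the fitted value over the 4 lines as a black bar and its 95% interval in grey. The intervals for pioglitazone all include 0, and of those for darglitazone only that of STAT5A (0.02 to 0.58) does not. With pioglitazone the OCI-AML3 markers (square) lie far from the fitted value for PIM1 (1.59), OSM (2.38), EPAS1 (1.45) and CISH (−2.05). With darglitazone all 4 markers of SOCS2 and SOCS3 lie below 0.

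EPAS1, the gene of HIF2A, was the least abundant of the 10 genes per length and was high in 1 line only. MOLM-14 held 463, 369 and 152 counts, which are 15.3, 15.8 and 16.2 CPM. MV4-11 was at 2.69, 1.03 and 2.50 CPM, OCI-AML3 at 0.254, 0.877 and 1.90 CPM, and KG-1a at 1.24, 0.504 and 0.209 CPM. The 9 libraries of the other lines held 1 to 82 counts each, and their lines overlapped. MOLM-14 was higher than MV4-11 by 2.99 (SE 0.61, adjusted p 0.00156 in edgeR), than OCI-AML3 by 4.28 (SE 0.72, adjusted p 0.000406) and than KG-1a by 4.45 (SE 0.70, adjusted p 0.000111). The OCI-AML3 difference was 3.22 without that line's DMSO library and 6.02 without its darglitazone library, and the KG-1a difference 5.37 without the KG-1a DMSO library. Among the other 3 lines no pair passed, with adjusted p of 0.112 to 0.881. MV4-11 against OCI-AML3 passed in limma-voom (1.99, adjusted p 0.00971) and without the OCI-AML3 darglitazone library (3.08, 0.00578). MV4-11 against KG-1a (1.46) passed under 6 alternatives, among them without the OCI-AML3 DMSO (1.58, 0.023) or darglitazone (1.59, 0.0282) library or the KG-1a DMSO library (2.42, 0.045).

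EPAS1-201, the main coding transcript of 5166 bases, took 82.2% to 91.2% of the gene's counts in the 3 MOLM-14 libraries. In MV4-11 it took 81.3%, 0% and 79.8%, in OCI-AML3 39.3%, 0% and 93.7%, and in KG-1a 0% each time. The libraries with 0% held 1 to 11 counts of the gene. It was estimated at 422.1, 303.2 and 127.8 counts there, at 21.1, 0 and 65.5 in MV4-11, at 6.7, 0 and 37.5 in OCI-AML3, and at 0 in all 3 KG-1a libraries. The KG-1a counts of EPAS1 therefore came from other transcripts of the gene. At that depth the shares are not precise. In the MV4-11 pioglitazone library a transcript with a retained intron took 75% of the 8 counts.

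In MOLM-14, where the depth allows a comparison, EPAS1 differed from DMSO by 0.04 with pioglitazone and by 0.08 with darglitazone on the log2 scale. The fit over the lines gave −0.29 for pioglitazone (SE 0.60, interval −1.57 to 1, adjusted p 0.979 in edgeR) and 0.44 for darglitazone (SE 0.56, interval −0.76 to 1.65). The single-line values of OCI-AML3 (1.45 and 2.48) and KG-1a (−1.15 and −2.10) have opposite signs and rest on 1 to 40 counts. In KG-1a the darglitazone library held 1 count (exact Poisson interval 0.00529 to 1.16 CPM) and the DMSO library 11 (0.619 to 2.22 CPM), and these intervals overlap. The test of a difference in response between lines gave EPAS1 a p of 0.0126 and an adjusted p of 1.

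CITED2 was the most abundant of the 10 genes per length. The window before 1 of its 3 starts held the only match of the HIF motif ACGTG among the 8 genes with an entry. These genes have 13 windows, and 18.5% of all windows hold a match. The line below is the minus strand of chr6:139374784-139374813, 165 to 136 bases before that start, and its capitals mark overlapping matches on the 2 strands.
CITED2 upstream: cagcctctgcagCACGTGccgcgggcggcg

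CITED2 was at 255, 249 and 230 CPM in MOLM-14, at 143, 94.8 and 146 CPM in OCI-AML3, at 117, 155 and 107 CPM in MV4-11, and at 45.8, 32.7 and 29.9 CPM in KG-1a. MOLM-14 and KG-1a overlapped no other line, and MV4-11 and OCI-AML3 overlapped and differed by −0.04 (SE 0.19, adjusted p 0.886 in edgeR). MOLM-14 was higher than KG-1a by 2.76 (SE 0.20, adjusted p 5.83e-08), and OCI-AML3 was higher than KG-1a by 1.85 (SE 0.20, adjusted p 2.94e-06). The line with the most EPAS1 was thus also the line with the most CITED2, but OCI-AML3 had little EPAS1 and a middle level of CITED2.

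Each drug gave a lower CITED2 level than DMSO in 3 of 4 lines, and the same 2 lines, MOLM-14 and KG-1a, were lower under both. With pioglitazone the fit gave −0.14 (SE 0.17, interval −0.50 to 0.22, adjusted p 0.955 in edgeR), with KG-1a at −0.48, OCI-AML3 at −0.59, MOLM-14 at −0.04 and MV4-11 at 0.40. With darglitazone it gave −0.20 (SE 0.16, interval −0.56 to 0.15, p 0.234, adjusted p 1), with KG-1a at −0.61, MOLM-14 at −0.15, MV4-11 at −0.14 and OCI-AML3 at 0.04. A fall of the fitted difference by more than 0.56 lies outside both intervals.

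The 2 drugs were also compared with each other at the same dose and time, and 0 of 10 genes (0% of all genes) differed in edgeR. The fitted difference of darglitazone from pioglitazone was closest to 0 for PIM1 (0.02, interval −0.48 to 0.53) and CITED2 (−0.07, interval −0.42 to 0.29). For STAT5A it was 0.19 (interval −0.11 to 0.49), for STAT5B 0.12 (interval −0.11 to 0.35) and for SOCS2 −0.09 (interval −0.47 to 0.29). The widest intervals were those of EPAS1 (0.73, interval −0.60 to 2.06) and SOCS3 (−0.62, interval −1.68 to 0.45), so that these data bound them least. The adjusted p was 0.98 to 0.997 for all 10, which does not show that the drugs act alike.

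The term for line by drug, which asks if lines differ in their mean response, called 0 of 10 genes and 0% of all genes in edgeR. At an unadjusted p under 0.05 there were 3 of the 10, PIM1, EPAS1 and OSM (p 0.0325), against 553 of all genes (3.59%). All 3 had their highest single-line difference in OCI-AML3, whose DMSO library was the deepest of the study and whose pioglitazone library was the shallowest.

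The OCI-AML3 pioglitazone library also held more RNA typical of KG-1a. For 80 genes at high level in KG-1a and nearly absent from OCI-AML3, its median level was 1.97% of that in KG-1a, against 0.109% in the OCI-AML3 DMSO library and 0.114% in the darglitazone library. The genes were chosen in part by their low level in these same OCI-AML3 libraries. In the pioglitazone library 1 count was worth 0.877 CPM, so a share this small rests on few counts per gene. The share and the amounts drawn from it are therefore rough. A share of 1.97% of the KG-1a level comes to 8.18 CPM of STAT5A, where 13.2 CPM was measured, to 7.53 CPM of PIM1, where 9.65 CPM was measured, and to 0.865 CPM of OSM, where 2.63 CPM was measured. For CISH it comes to 0.464 of 0.877 CPM. In the darglitazone library the same sum gives 0.473 of 10.7 CPM of STAT5A, 0.436 of 6.60 CPM of PIM1 and 0.05 of 1.52 CPM of OSM. The part of these shares in the OCI-AML3 values was not tested.

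**Figure D3:**
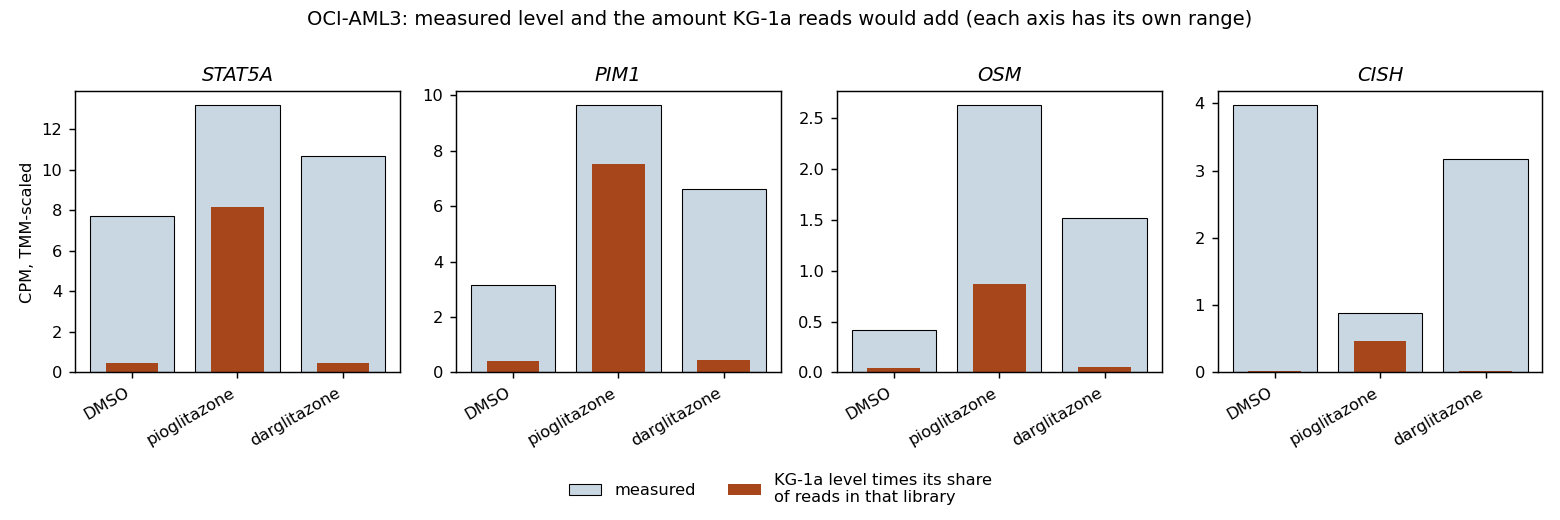
Measured level in CPM (pale bars, each axis from 0) of STAT5A, PIM1, OSM and CISH in the 3 OCI-AML3 libraries, and the amount that equals the KG-1a level times the share of KG-1a-typical RNA in that library (dark bars). In the pioglitazone library the dark bar reaches 8.18 of 13.2 CPM for STAT5A and 7.53 of 9.65 CPM for PIM1, and in the DMSO and darglitazone libraries it stays close to 0. In the pioglitazone library 1 count is worth 0.877 CPM, so its dark bars are rough.

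The KG-1a darglitazone library in turn held 6 genes typical of MV4-11 at a median of 4.1% of their MV4-11 level. That share equals 17.3% of the CITED2 level measured there, 13.1% of SOCS2 and 40.7% of EPAS1. Genes typical of MOLM-14 (9 genes) were at 1.07% of their MOLM-14 level there, which equals 8.74% of CITED2, 20.9% of SOCS2 and 80.7% of EPAS1, a gene with 1 count in that library. In MV4-11, 5 genes typical of MOLM-14 were at 2.02%, 0.0953% and 1.38% of their MOLM-14 level with DMSO, pioglitazone and darglitazone. These shares equal 9.79%, 0.688% and 9.52% of the SOCS2 level measured there, and 11.8%, 1.45% and 8.71% of EPAS1. The part of these shares in the KG-1a and MV4-11 values was not tested.

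MOLM-14 and MV4-11, which are known to carry FLT3-ITD, were set against OCI-AML3 and KG-1a. Signalling to STAT5 was not measured in any line. In edgeR 6 of 10 genes passed, against 43.6% of all genes: 5 were higher in the FLT3-ITD pair (24% of all genes) and 1 was lower (19.6%). EPAS1 was higher by 2.87 (SE 0.49, adjusted p 0.000328), SOCS3 by 1.83 (SE 0.39, 0.00253), SOCS2 by 1.37 (SE 0.14, 2.88e-06), CITED2 by 1.36 (SE 0.14, 2.23e-06) and CISH by 1.21 (SE 0.18, 8.68e-05). STAT5B was lower by −0.56 (SE 0.09, adjusted p 0.00012). The median of the 10 was 0.80 and that of all genes 0.03.

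None of these 6 separated the pairs of lines. Over the 4 single comparisons of a FLT3-ITD line with another line, 0 of 10 genes passed in the same direction in all 4, where 5.87% of all genes did (3.38% higher and 2.49% lower). EPAS1 was 1.36 without MOLM-14 (adjusted p 0.176 in edgeR), 4.34 without MV4-11 and 3.8 without the OCI-AML3 darglitazone library. CISH was −0.22 without OCI-AML3 (adjusted p 0.300) and 2.58 without KG-1a, and SOCS3 was 0.49 without OCI-AML3 (0.513), 0.96 without MV4-11 (0.0556), 2.60 without MOLM-14 and 3.01 without KG-1a. SOCS2 was 0.05 without MOLM-14 (0.872), 0.07 without KG-1a (0.767), 2.63 without OCI-AML3 and 2.68 without MV4-11. CITED2 was 0.43 without KG-1a (0.0861) and 2.26 without OCI-AML3, and STAT5B was −0.22 without KG-1a (0.2). STAT5A, PIM1 and OSM, at −0.02, −0.04 and 0.38 for the pair, hid opposite values: without OCI-AML3 they were −2.77, −3.19 and −2.41, and without KG-1a 2.68, 3.03 and 2.97. PIM1 passed at −0.33 without the OCI-AML3 DMSO library (adjusted p 0.0361). PIM2, at 0.39 (adjusted p 0.0898), passed at 0.54 (0.0194) without the MV4-11 darglitazone library and at 0.88 (0.0115) without MOLM-14. With 2 lines a side, the FLT3 genotype and every other trait of the lines cannot be told apart.

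Across the 12 libraries STAT5A, PIM1 and OSM ran together. The libraries of a line share that line, so their levels lie in 4 clusters, and the correlations that follow describe the lines and carry no test. Pearson's r of the log2 levels was 0.97 for STAT5A with PIM1, 0.96 for STAT5A with OSM and 0.97 for PIM1 with OSM. With the line means removed these were 0.64, 0.70 and 0.82, values to which the OCI-AML3 libraries with few counts contribute. Other targets went another way. With STAT5A, PIM1 and OSM, CISH had 0.76, 0.73 and 0.72, but −0.69, −0.64 and −0.60 with the line means removed. Its OCI-AML3 pioglitazone value of 1 count contributes to the latter. SOCS2 had −0.60, −0.71 and −0.59 with the same 3 genes, and 0.09, 0.33 and 0.30 with the line means removed. STAT5A with STAT5B had 0.63 and, with the line means removed, 0.75. CITED2 and SOCS2 had 0.90, but 0.11 with the line means removed. EPAS1 had 0.75 with CITED2, and 0.11 with the line means removed.

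**Figure D4:**
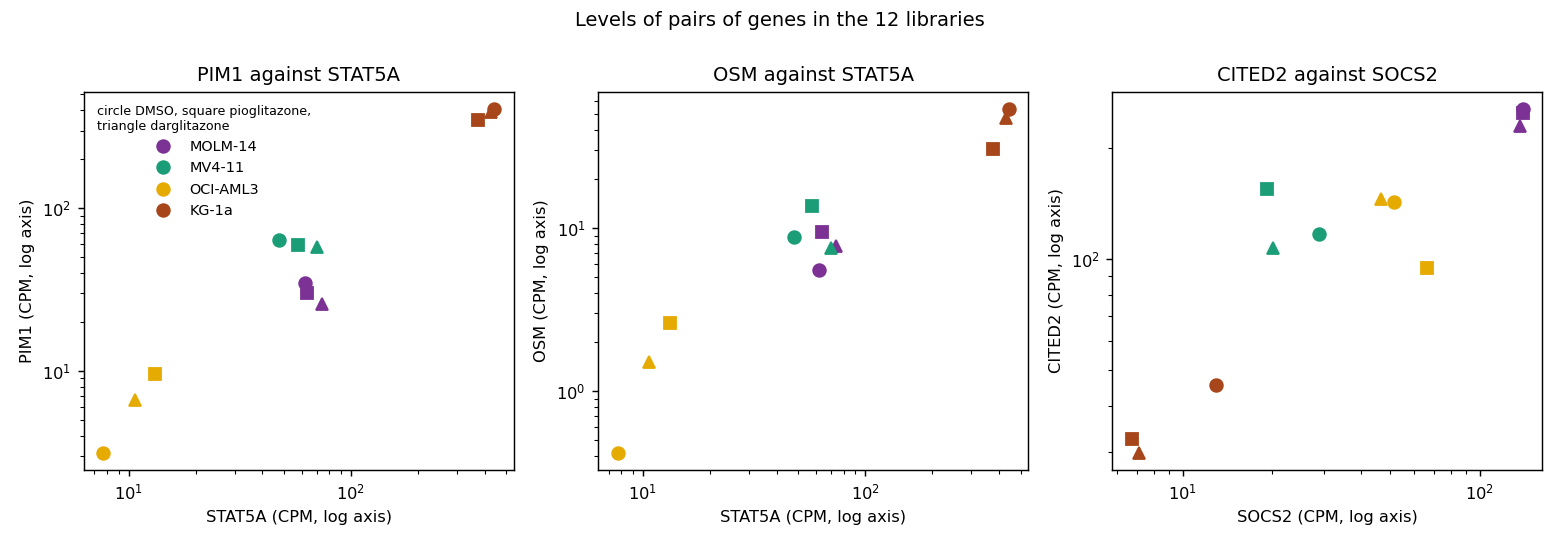
Level of PIM1 and OSM against STAT5A, and of CITED2 against SOCS2, in CPM on log axes, with 1 point per library, colour for the line and marker shape for the treatment. The KG-1a points lie at the upper right of the first 2 panels (STAT5A 374 to 442 CPM) and the OCI-AML3 points at the lower left, while in the third panel KG-1a lies at the lower left and MOLM-14 at the upper right.

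Many other genes share these orders of lines. Among 10570 protein-coding genes, 170 had r above 0.9 with STAT5A over the 12 libraries, led by PALM (0.988), DZIP3 (0.985) and VCL (0.984). PIM1 had 182, led by SLC25A29 (0.995), and OSM had 80, led by MEST (0.97). CITED2 had 255, led by CTDSP2 (0.982) and CDK4 (0.979), and SOCS2 had 154, led by ELP5 (0.984). For CISH there were 200, led by HMOX2 (0.978), and for STAT5B 106, led by ITGAV (0.978). EPAS1 had 16, led by BRAP (0.939), SOCS3 had 9, led by TBC1D13 (0.953), and PIM2 had 3, led by FOXN3 (0.928).

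On a scale that corrects for transcript length and library total (TPM), the median over the 12 libraries put CITED2 at 118, STAT5A at 28.7, SOCS2 at 28.1, PIM1 at 23.2, PIM2 at 19.6 and STAT5B at 19.3. CISH followed at 8.01, OSM at 5.53, SOCS3 at 2.59 and EPAS1 at 0.923 TPM. CITED2 had the highest median of the 10 genes in MOLM-14, OCI-AML3 and MV4-11, and PIM1 in KG-1a. In KG-1a the median of PIM1 was 210 TPM and that of STAT5A 156 TPM, with CITED2 at 23.6 TPM. In MOLM-14 CITED2 was at 206 TPM and SOCS2 at 93.0 TPM, with STAT5A at 29.5 TPM. STAT5B exceeded STAT5A on this scale in OCI-AML3 only, at 24.3 against 5.07 TPM.

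The rest of the pathway showed the same division, with no call for a drug and large differences between lines. None of 13 tested receptors, 8 kinases, 5 other STAT genes, 15 brakes, 12 further STAT5 targets, 9 oxygen-sensing genes, 16 HIF targets, 6 genes of the CITED group, 2 oncostatin M receptor genes or 18 quiescence genes passed for either drug in edgeR. The median differences of these lists with pioglitazone were −0.13 to 0.07, and 0.43 for the 2 oncostatin M receptor genes, against −0.02 for all genes. Among the genes with the smallest p of each list, IL2RG, the receptor chain shared by several interleukins, was at 0.71 with pioglitazone (SE 0.18, adjusted p 0.568). IL2RG went from 2.59 to 6.14 CPM in OCI-AML3, and the part of KG-1a-typical RNA in that value was not tested. VEGFA, a HIF target, was at 0.74, CXCR4, the receptor that holds stem cells in the marrow, at −0.53, and the erythropoietin receptor EPOR at −0.50. VEGFA went from 33.3 to 114 CPM in OCI-AML3, from 23.6 to 48.5 in MV4-11, from 16.7 to 23.5 in KG-1a and from 111 to 107 in MOLM-14. With darglitazone the metabolic HIF target PDK1 was at −0.32 and the signalling brake DUSP6 at 0.43. DUSP6 was higher mainly in OCI-AML3, at 39.4 CPM with DMSO and 117 with darglitazone. It was at 50.2 and 48.2 CPM in MOLM-14, at 55 and 62.7 in MV4-11 and at 138 and 129 in KG-1a.

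Between the FLT3-ITD pair and the other lines, 6 receptors of 13 were higher and 4 lower. Over all genes 24% were higher and 19.6% lower. FLT3 itself was higher by 3.60 (SE 0.56, adjusted p 0.00221 in edgeR), at line means of 288, 418, 138 and 7.14 CPM in MOLM-14, MV4-11, OCI-AML3 and KG-1a. KG-1a, the line with the most STAT5A, PIM1 and OSM, had the most IL2RG (line mean 167 CPM, at most 15.6 elsewhere) and JAK3 (196 CPM, at most 20.5). Of 8 kinases, 3 were higher in the FLT3-ITD pair (24% of all genes) and 5 lower (19.6%), led by JAK3 (−3.04) and FGR (−2.68). Of the 5 other STAT genes 2 were higher (24%), among them STAT6 (1.18), and 2 lower (19.6%), among them STAT3 (−0.97), which was highest in KG-1a (285 CPM) and lower in OCI-AML3 (88.7) than in MOLM-14 (105).

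Further STAT5 targets did not share one order of lines. Between the same pairs of lines, 2 of 12 were higher (24% of all genes), CCND2 (3.53) and GFI1 (2.21), and 4 lower (19.6%), led by SPRED1 (−2.76). SPRED1 was low in MV4-11 only, at a line mean of 0.218 CPM against 7.96 to 22.4 elsewhere. CCND2, a cyclin of the G1 phase, had line means of 323 CPM in MOLM-14 and 270 in KG-1a, against 73.1 in MV4-11 and 1.81 in OCI-AML3. GFI1, a repressor of myeloid genes, was at 257 CPM in MV4-11 and 18.4 in KG-1a. Of 15 brakes, 0 were higher (24% of all genes) and 4 lower (19.6%), led by PIAS2 (−1.06).

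The HIF and CITED genes around EPAS1 and CITED2 were split too. Of 9 oxygen-sensing genes 2 were higher in the FLT3-ITD pair (24% of all genes), among them EGLN1 (0.79), whose enzyme marks HIF subunits for degradation, and 2 lower (19.6%), among them HIF1A (−0.63). EGLN1 was at 74.9 CPM in MOLM-14 and at 56.5 in OCI-AML3, above MV4-11 (24.1). HIF1A, the gene of the other main HIF subunit, had line means of 64.4 CPM in KG-1a, 50.5 in OCI-AML3, 36.9 in MOLM-14 and 36.8 in MV4-11, so its order was not that of EPAS1. Of 16 HIF targets 3 were higher (24% of all genes), among them MXI1 (2.08) and CXCR4 (1.23), and 4 lower (19.6%), led by AK4 (−5.44). CXCR4 was highest in OCI-AML3 (115 CPM, against 79.2 and 86.8 in the FLT3-ITD lines) and low in KG-1a (11.8). AK4 was at 0.873 and 0.877 CPM in the FLT3-ITD lines and at 33.6 and 62.3 CPM in OCI-AML3 and KG-1a. In the CITED group 3 of 6 were higher (24% of all genes), TFAP2A (3.42), CITED4 (3.01) and CITED1 (2.24). TFAP2A was at 7.24 CPM in MOLM-14 and at 0.134 in MV4-11, below OCI-AML3 (1.23), and CITED4 was higher in OCI-AML3 (25.3) than in MOLM-14 (17.2). The coactivators EP300 (0.15) and CREBBP (−0.19) did not pass. Of 18 quiescence genes 5 were higher (24%), led by FOXO1 (4.55), and 5 lower (19.6%), led by GATA2 (−4.27) and ERG (−3.40). FOXO1 was high in MOLM-14 only (13.6 CPM, at most 0.212 elsewhere) and ERG in KG-1a only (121 CPM, at most 0.587 elsewhere).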

How the data were processed

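The authors deposited estimated counts per transcript for 12 libraries, without normalization, and 89.8% of the values above 0 were not whole (tolerance 1e-06). Per the labels' protocols, total RNA was taken with an RNeasy kit and made into stranded libraries after removal of ribosomal RNA. Build GRCh38 and the tools STAR, featureCounts, DESeq2, fastp and FastQC are named, per the submitters' processing notes. Their versions, the annotation and the tool behind the estimated counts are not given in the sources used here. GENCODE 29 matched 202941 of 203027 transcripts (99.958%), and the other 86 held at most 0.0169% of a library. Estimated counts were summed per gene and rounded.

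Genes were kept by filterByExpr with the line as group (minimum count 10, minimum total 15). edgeR 4.0.16 in R 4.3.3 fitted line and treatment to all 12 libraries (TMM, robust quasi-likelihood, 6 residual degrees of freedom), and p-values were adjusted by Benjamini and Hochberg over all 15424 genes at 0.05. The line by drug model, with both drugs pooled against DMSO, had 4 residual degrees of freedom. Log2 CPM used a prior count of 2, and TPM used the annotated transcript lengths. Line pairs the libraries by design: deviations of same-line libraries from the group means correlated at 0.6 to 0.85 (12 pairs), those of different lines at −0.53 to −0.04. On simulated data for pioglitazone against DMSO (15424 genes), 95% of 2-fold and 98% of 4-fold changes were recovered, with 16 false calls. The changes were placed only in genes with a mean log2 level over the lines above 4, with the same fold in every line. Counts were drawn around the line means with the fitted spread, so rRNA-rich libraries and RNA typical of another line were not simulated as such. EPAS1, SOCS3, OSM and CISH lie below that level, so these recovery rates do not cover them or a response that differs between lines. limma 3.58.1 and DESeq2 1.42.0 served as alternatives, with other scalings, filters, depths and left-out libraries. All 10 genes are named. Of each gene list, the text names from the genes called in the line comparison, up to 3 by size, and otherwise from the 2 with the smallest p. For genes alike in pattern, it names up to 3 by Pearson's r. The genes and lists were chosen with earlier results of these data known. EP300, CREBBP, OSMR and LIFR were added after their values were seen. Values of some listed genes are not reported here.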

Additional observations from a re-analysis of the deposited data

Results flagged for a closer look

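Among 50 groups of 4 values tested (each gene's levels per treatment and its drug differences over the lines), 3 had a value far from the other 3 by Dixon's criterion, a number near the 1 in 20 that chance gives. CISH was far lower in OCI-AML3 than in the other lines both with DMSO (3.98 CPM) and with pioglitazone (0.877 CPM, 1 count). The pioglitazone difference of PIM1 was far higher in OCI-AML3 (1.59 on the log2 scale, 11 counts with the drug) than in the other lines.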

How the results depend on the processing

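No drug value of the 10 genes (30 in all) was called under any of the alternatives, and 21 of them changed sign in at least 1. The numbers of genes called among all genes moved more. Without the filter on low counts they were 223 for pioglitazone, 76 for darglitazone, 88 for darglitazone against pioglitazone and 157 for line by drug, and DESeq2 called 74, 6, 12 and 38. With counts thinned to the shallowest library they were 13 for pioglitazone and 1 for darglitazone against pioglitazone. Leaving out 1 library or line gave 0 to 14, 0 to 3, 0 to 4 and 0 to 55 genes in the same order, and line by drug had 77 if the pioglitazone libraries of KG-1a and OCI-AML3 were both dropped. None of these calls was one of the 10 genes.

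Cell line was the replicate block. With no replicate block, 0 genes were called for pioglitazone, for darglitazone and between the drugs, and the fitted differences of SOCS3 and EPAS1 with pioglitazone were 0.85 and −0.06. The block changed no call.

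Thinning lowered the line counts to 4273 for the FLT3-ITD pair, 3541 for MOLM-14 against MV4-11, 3348 for MOLM-14 against OCI-AML3, 5050 for MOLM-14 against KG-1a, 4630 for MV4-11 against KG-1a and 5234 for OCI-AML3 against KG-1a. Of 52 called line values of the 10 genes, 14 lost the call under some alternative, and 6 of 18 that were not called gained it. Leaving out lines or libraries moved the FLT3-ITD values of STAT5A over −2.77 to 2.68, PIM1 over −3.19 to 3.03, CISH over −0.22 to 2.58 and OSM over −2.41 to 2.97. Depth limited EPAS1 outside MOLM-14 and CISH, SOCS3 and OSM in the OCI-AML3 pioglitazone library, where differences were not detectable below the counting intervals given.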

Other observations

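The estimated transcripts of STAT5A and SOCS2 were used unequally across the lines. STAT5A-209 took most of the STAT5A counts in every library, at 57.7% to 85.3%. STAT5A-201, a longer coding transcript, took 19.8%, 25.6% and 18.4% in KG-1a with DMSO, pioglitazone and darglitazone. In MOLM-14 it took 11.3%, 1.2% and 0% in the same order, and it was estimated at 0% in all OCI-AML3 and MV4-11 libraries. SOCS2-207 took 25.5% to 26.1% of the SOCS2 counts in MOLM-14 and 6.7% to 10.3% in MV4-11, while a shorter coding transcript of 1065 bases took 16.7% to 24% and 36.1% to 51.8%. These shares come from the authors' estimates, and reads that fit several transcripts limit them.

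With the line means removed, 213 of 10570 genes had r above 0.9 with CISH over the 12 libraries, led by TST (0.982). For the other 9 genes the number was 4 to 18. The CISH value in the OCI-AML3 pioglitazone library, 1 count at 0.877 CPM, is the one farthest from its line mean.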
